A study of Homo sapiens with 12 samples.

Results

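The replication-dependent histone genes HIST1H2AG, HIST1H2BJ, HIST1H2AH, HIST1H2BK, HIST1H2AI, HIST1H2BL, HIST1H2AJ, HIST1H2BM, HIST1H2AK and HIST1H2BN lie on chromosome 6 as 5 divergent pairs, each with 1 H2A and 1 H2B gene that are transcribed away from each other. All 10 genes were chosen by position, as the divergent pairs in the 27 Mb part of the HIST1 cluster, and a region was counted at a pair when its summit lay within 1 kb of the midpoint between the genes. By this rule 55 of the 1636159 regions listed in 8 ChIP-Seq libraries belonged to the pairs. The midpoints in NCBI36 were 27208680 for H2BJ/H2AG, 27222730 for H2BK/H2AH, 27883820 for H2BL/H2AI, 27890650 for H2BM/H2AJ and 27914260 for H2BN/H2AK (the prefix HIST1 is left out of pair names). The spacing of neighboring midpoints differed by at most 37.5 bp from the spacing of the same pairs in the RefSeq table, which is on GRCh38.p14.

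The libraries were made from U2OS, an osteosarcoma line, and hTERT-RPE1, epithelial cells of retinal origin immortalized with telomerase, with antibodies to CASP8AP2, NPAT, HINFP or E2F1. Each factor had 1 library per line, without replicates, so differences between libraries cannot be set against a replicate spread. Intervals given here cover counting error only. Regions had been called in each library by itself against IgG (rabbit for CASP8AP2, NPAT and E2F1, goat for HINFP), and a region was taken as significant at a fold change over 2 with a deposited p-value under 0.00001. The total depth of a library is not known from the lists, but the fold changes hold a constant for each library. Read as a ratio of depths, it places the ChIP libraries at 0.858 to 1.23 times the depth of their IgG library. This reading was not tested, and depth over IgG has this meaning below. Every listed region has at least 8 reads piled at its summit.

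H2A and H2B form dimers that complete the nucleosome, and their replication-dependent genes are transcribed mainly in S-phase, when new DNA has to be packed. NPAT is the coactivator of these genes and a substrate of cyclin E-CDK2. CASP8AP2 (FLASH) sits with NPAT in the histone locus body and also takes part in the processing of histone mRNA. HINFP is known as the activator of H4 genes, and E2F1 as a factor of the G1/S transition. The authors report HINFP near start sites of replication-dependent H2B genes as well as H4 genes. Paired H2A and H2B genes share a short stretch of promoter, in which CCAAT and TATA boxes and, on the H2B side, an octamer element are known features.

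The stretches between the gene starts are shown here because they are the part that the genes of a pair have in common. They are RefSeq sequence of GRCh38.p14, written from the base next to the H2B start to the base next to the H2A start, and capitals mark the CCAAT box, the TATA box as TATAAA, the octamer ATTTGCAT and the E2F forms TTTCCCGC, TTTCGCGC, TTTGCCGC and TTTGGCGC, on either strand.
H2BJ/H2AG, chr6:27132796-27133042, plus strand: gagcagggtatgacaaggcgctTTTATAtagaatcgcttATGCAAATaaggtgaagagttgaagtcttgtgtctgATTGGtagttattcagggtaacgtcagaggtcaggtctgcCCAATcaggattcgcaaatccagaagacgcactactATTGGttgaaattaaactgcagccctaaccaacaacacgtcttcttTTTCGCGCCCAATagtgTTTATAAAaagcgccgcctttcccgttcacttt
H2BK/H2AH, chr6:27146859-27147105, plus strand: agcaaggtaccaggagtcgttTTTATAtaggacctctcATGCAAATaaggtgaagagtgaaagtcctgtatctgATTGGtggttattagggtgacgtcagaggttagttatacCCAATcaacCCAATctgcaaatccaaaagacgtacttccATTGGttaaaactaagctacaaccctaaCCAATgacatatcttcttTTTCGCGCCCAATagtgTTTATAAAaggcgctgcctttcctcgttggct
H2BL/H2AI, chr6:27807930-27808172, plus strand: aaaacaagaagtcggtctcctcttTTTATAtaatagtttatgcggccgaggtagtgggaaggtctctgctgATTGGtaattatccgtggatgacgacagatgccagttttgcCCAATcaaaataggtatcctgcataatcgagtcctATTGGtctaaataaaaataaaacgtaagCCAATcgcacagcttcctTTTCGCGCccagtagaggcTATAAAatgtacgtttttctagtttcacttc
H2BM/H2AJ, chr6:27814778-27815021, minus strand: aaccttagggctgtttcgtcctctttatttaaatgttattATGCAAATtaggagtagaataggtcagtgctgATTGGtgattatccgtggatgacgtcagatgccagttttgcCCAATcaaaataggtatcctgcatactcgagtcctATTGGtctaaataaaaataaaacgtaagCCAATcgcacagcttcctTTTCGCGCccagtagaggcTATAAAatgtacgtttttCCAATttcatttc
H2BN/H2AK, chr6:27838376-27838568, minus strand: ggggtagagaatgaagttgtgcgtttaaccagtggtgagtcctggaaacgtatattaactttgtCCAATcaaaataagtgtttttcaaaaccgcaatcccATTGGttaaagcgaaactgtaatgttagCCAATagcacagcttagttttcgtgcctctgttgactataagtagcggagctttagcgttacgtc

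The H2BN/H2AK stretch stood apart, with 193 bases between the starts against 243 to 247 in the other pairs and with CCAAT as the only one of these motifs, found 3 times. The other 4 pairs each held 1 E2F form, TTTCGCGC, which begins at base 194 to 199 and so lies on the H2A side. In H2BJ/H2AG and H2BK/H2AH a CCAAT on the same strand follows it directly, so that the capitals run on. The octamer was found near the H2B end in H2BJ/H2AG, H2BK/H2AH and H2BM/H2AJ, beginning at base 40, 39 and 41. It was not found in H2BL/H2AI. TATAAA was found 3 times in each of H2BJ/H2AG and H2BK/H2AH, where matches on opposite strands overlap near the H2A end. H2BL/H2AI held it 2 times and H2BM/H2AJ 1 time. GTCCG, a part of the HINFP element of H4 genes, was found in none of the 5 stretches.

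RefSeq promoter windows, from 250 bases before to 50 after the start, were matched for 9 of the 10 genes, all but HIST1H2AH. CCAAT was found in 9 of the 9 windows, against 35.7% of the windows of 27305 genes. TATAAA was found in 7 (12% of all windows), an E2F form in 7 (3.33%), the octamer in 5 (1.80%) and GTCCG in 0 (28.7%). The windows of paired genes overlap and are not independent of each other. Between pairs, the stretches of H2BL/H2AI and H2BM/H2AJ were the most alike, with 86.3% identical positions and an unbroken identical run of 93 bases. Those of H2BJ/H2AG and H2BK/H2AH had 80.5% and a run of 33 bases. The other 8 comparisons gave 53.9 to 66.9%, with no run over 12 bases. Reads within an identical run that are no longer than it cannot be placed at 1 of the pairs, and neither the read length nor the treatment of such reads is given in the sources used here.

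NPAT was found at the pairs most often. In hTERT-RPE1 cells all 5 pairs had a significant NPAT region, 3 had a significant E2F1 region (H2BJ/H2AG, H2BK/H2AH and H2BN/H2AK) and 2 had a CASP8AP2 region (H2BJ/H2AG and H2BK/H2AH). In U2OS cells 4 pairs had NPAT, all but H2BL/H2AI, 3 had CASP8AP2 (H2BJ/H2AG, H2BK/H2AH and H2BM/H2AJ) and only H2BJ/H2AG had E2F1. HINFP had no significant region at any pair in either line. By region, 2 of 8 CASP8AP2 regions, 6 of 11 NPAT regions and 3 of 9 E2F1 regions at the pairs were significant in hTERT-RPE1 cells, where 0.112%, 0.259% and 0.707% of all listed regions were, in the same order. In U2OS cells these were 4 of 11, 4 of 9 and 1 of 6, against 0.0927%, 0.108% and 0.748% of all regions. HINFP had no listed region at the pairs in hTERT-RPE1 cells, where 0.393% of its regions were significant. It had 1, not significant, in U2OS cells, with 0.50% of all its regions significant. These p-values compare 1 ChIP with 1 IgG library.

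H2BJ/H2AG carried the most sequences of CASP8AP2, NPAT and E2F1 in both lines. In hTERT-RPE1 cells NPAT had 331 ChIP and 29 IgG sequences there, at 27207516 to 27210129, a raw ratio (each count plus 1) of 11.1 with a 95% exact binomial interval of 7.80 to 17.3. CASP8AP2 had 159 and 26, a raw ratio of 5.93 (4.02 to 9.65), and E2F1 had 118 and 18, a raw ratio of 6.26 (3.97 to 11.4). In U2OS cells NPAT had 485 and 61 sequences, at 27207046 to 27210540, with a raw ratio of 7.84 (6.08 to 10.6). The intervals of NPAT in the lines thus overlap. CASP8AP2 had 328 and 55 sequences in U2OS cells, with a raw ratio of 5.88 (4.47 to 8.09), and E2F1 had 68 and 10, with 6.27 (3.48 to 14.8). By deposited p-value the NPAT region was the 9th of its list in hTERT-RPE1 and the 8th in U2OS cells, and the CASP8AP2 region was the 11th in each line. HINFP had no listed region at H2BJ/H2AG.

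At H2BK/H2AH, NPAT had 173 ChIP and 26 IgG sequences in hTERT-RPE1 cells, a raw ratio of 6.44 (4.39 to 10.5), and 253 and 21 in U2OS cells, a raw ratio of 11.5 (7.71 to 19.8). CASP8AP2 had 61 and 26 sequences at the same place in hTERT-RPE1 cells, a raw ratio of 2.30 (1.46 to 3.87) that was not significant, and 155 and 26 in U2OS cells, a raw ratio of 5.78 (3.92 to 9.41). The CASP8AP2 intervals of the lines did not overlap at this pair. The HINFP region of U2OS cells lay here too, with 20 ChIP and 13 IgG sequences, a raw ratio of 1.5 (0.728 to 3.37) and a height of 9 reads. E2F1 had 27 and 17 sequences close to the midpoint in hTERT-RPE1 cells, and U2OS cells had 21 and 18, not significant in either line.

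H2BK/H2AH had more regions away from the midpoint, on the H2BK side. For CASP8AP2 and NPAT in both lines these ended at 27222290 to 27222352. The regions at the midpoint started at 27222412 to 27222424. Whether the lists split a single stretch at this place was not tested. In hTERT-RPE1 cells NPAT had 106 ChIP and 8 IgG sequences with a summit 854 bp from the midpoint, a raw ratio of 11.9 (6.49 to 31.5). The E2F1 summit, with 44 and 5 sequences and a raw ratio of 7.5 (3.5 to 28.4), was 14 bp from that of NPAT. CASP8AP2 had 51 and 8 sequences there, a raw ratio of 5.78 (3.0 to 15.6), with its summit 744 bp from the midpoint. All of these regions were significant, and for CASP8AP2 this was the only significant region of the pair in hTERT-RPE1 cells. In U2OS cells the CASP8AP2 region on this side had 80 and 21 sequences, a raw ratio of 3.68 (2.33 to 6.49), with the summit at 962 bp. The NPAT region had 109 and 21 and a raw ratio of 5.00, but its summit lay 1136 bp from the midpoint, outside the 1 kb. E2F1 had 29 and 10 sequences at 764 bp, a raw ratio of 2.73 (1.37 to 6.67), which was not significant. The regions on the H2BK side were thus listed for these 3 factors in both lines, with E2F1 significant only in hTERT-RPE1 cells. The difference in E2F1 between the lines, -1.46 on the log2 scale, had a counting interval of -3.04 to 0.12.

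**Figure D1:**
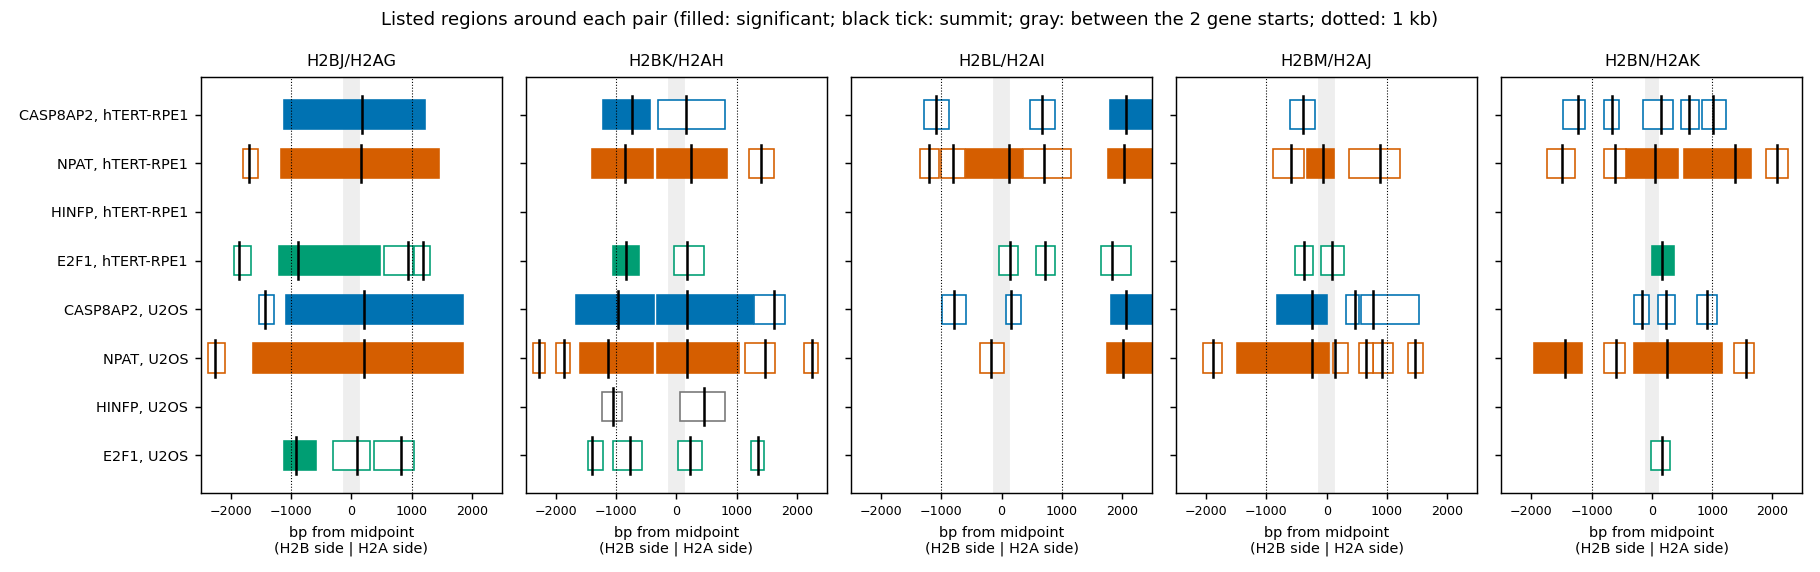
Listed regions within 2500 bp of each pair's midpoint (horizontal axis in bp, H2B side to the left and H2A side to the right), with 1 row per library, filled bars for significant regions, open bars for others and black ticks for summits. The gray band is the stretch between the gene starts, and the E2F1 regions with the most sequences at H2BJ/H2AG and H2BK/H2AH have their summits 764 to 915 bp to the left of the midpoint.

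E2F1 had the same kind of placement at H2BJ/H2AG. Its summit lay on the H2BJ side, at a distance from the midpoint of 890 bp (hTERT-RPE1) or 915 bp (U2OS). From the NPAT summit it was 1043 and 1121 bp away. With the H2BJ start 123.5 bp from the midpoint, both summits were further from that start than the 480 bases of the RefSeq model of H2BJ. In U2OS cells the list separates the E2F1 region around this summit from another with 31 ChIP and 17 IgG sequences, 102 bp from the midpoint on the H2AG side, whose raw ratio of 1.78 was not significant. In hTERT-RPE1 cells a single E2F1 region of 1671 bp covers both places. Of the 4 significant E2F1 regions at the pairs, 3 had their summit over 700 bp from the midpoint. For NPAT this held for 1 of 10 and for CASP8AP2 for 2 of 6, all of them on the H2BK side of H2BK/H2AH. The printed stretches reach only to the gene starts, so the sequence under these E2F1 summits is not shown.

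CASP8AP2 and NPAT had nearby summits at some of the pairs. At H2BJ/H2AG the CASP8AP2 and NPAT summits were separated by 33 bp (hTERT-RPE1) or 3 bp (U2OS). At H2BK/H2AH they were 72 and 6 bp from each other, with the U2OS summits 176 and 170 bp from the midpoint on the H2AH side. At H2BM/H2AJ in U2OS cells they were 6 bp apart and lay 246 and 252 bp from the midpoint on the H2BM side. The CASP8AP2 region of the 72 bp gap was not significant, nor were those of the gaps at the other pairs, which came to 104 (H2BN/H2AK), 548 (H2BL/H2AI) and 1285 bp (H2BM/H2AJ) in hTERT-RPE1 cells. In U2OS cells these were 622 (H2BL/H2AI) and 662 bp (H2BN/H2AK). The gaps are between the regions with the most sequences and depend on that choice. From the significant NPAT summit at H2BM/H2AJ in hTERT-RPE1 cells the gap was 337 bp, not 1285 bp. At H2BN/H2AK in U2OS cells another CASP8AP2 region, with 11 and 6 sequences and not significant, had its summit 234 bp from the midpoint. The NPAT summit lay on the same side at 253 bp. Of the 10 significant NPAT summits, 9 were within 300 bp of a midpoint and 2 lay between the gene starts, both in hTERT-RPE1 cells, at H2BM/H2AJ and H2BN/H2AK. A further 6 lay beyond the H2A start and 2 beyond the H2B start. No significant CASP8AP2 summit lay between the starts. The starts were placed around the NCBI36 midpoints with distances from GRCh38.p14, and spacings differed by up to 37.5 bp. Some NPAT summits of hTERT-RPE1 cells are too near a start to be placed. These are H2BL/H2AI, at 126 bp with the start at 121.5 bp, and H2BJ/H2AG, at 153 bp with the start at 123.5 bp.

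H2BL/H2AI was the pair with the fewest significant regions, 1 in the 8 libraries. NPAT had 57 ChIP and 4 IgG sequences in hTERT-RPE1 cells, at 27883233 to 27884163, with a raw ratio of 11.6 (5.27 to 54.1). In U2OS cells it had 18 and 4, a raw ratio of 3.80 (1.48 to 18.3), so that the intervals overlap. The CASP8AP2 region with the most sequences lay on opposite sides of the midpoint in the lines. It had 16 and 9 sequences, 674 bp from the midpoint on the H2AI side, in hTERT-RPE1 cells, and 20 and 3, at 789 bp on the H2BL side, in U2OS cells. Neither was significant. U2OS cells also had a CASP8AP2 region on the H2AI side, with 10 and 2 sequences at 151 bp, so the side depends on the region taken. E2F1 had 13 and 9 sequences in hTERT-RPE1 cells and no listed region in U2OS cells.

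At H2BM/H2AJ the NPAT and CASP8AP2 counts of both ChIP and IgG were higher in U2OS cells, and the intervals of the ratios overlapped. In U2OS cells NPAT had 103 ChIP and 21 IgG sequences, with a raw ratio of 4.73 (3.05 to 8.26). CASP8AP2 had 58 and 12, with 4.54 (2.57 to 9.89), against a raw ratio of 4.5 (1.64 to 30.2) in hTERT-RPE1 cells. In hTERT-RPE1 cells the NPAT region with the most sequences, 34 and 7 with a raw ratio of 4.38 (2.12 to 13.0), was not significant and lay 888 bp from the midpoint on the H2AJ side. A smaller region next to the midpoint, with 24 and 1 sequences and a raw ratio of 12.5 (3.91 to 987), was significant. It rests on a single IgG sequence. CASP8AP2 had 17 and 3 sequences in hTERT-RPE1 cells and E2F1 had 10 and 1, neither significant, and E2F1 had no listed region in U2OS cells. What part reads shared between H2BL/H2AI and H2BM/H2AJ have in these values was not tested.

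At H2BN/H2AK the cell lines lay apart for NPAT and E2F1, both with the higher ratio in hTERT-RPE1 cells. In hTERT-RPE1 cells NPAT had 94 ChIP and 6 IgG sequences at 27913824 to 27914687, a raw ratio of 13.6 (6.93 to 43.8), and E2F1 had 37 and 2 at 27913895 to 27914264, a raw ratio of 12.7 (4.77 to 158). In U2OS cells NPAT had 71 and 20 sequences in a longer region, 1474 against 864 bp, with a raw ratio of 3.43 (2.14 to 6.16). E2F1 had 9 and 7 there, a raw ratio of 1.25 (0.426 to 4.06). The height at the summit was 46 and 18 reads for NPAT and 34 and 9 reads for E2F1, hTERT-RPE1 cells first. The E2F1 summits were 2 bp apart between the lines, 162 and 164 bp from the midpoint on the H2AK side. CASP8AP2 was not significant in either line, with 17 and 5 sequences in hTERT-RPE1 cells, against 13 and 8 in U2OS cells. These CASP8AP2 regions did not overlap, with summits 150 bp (hTERT-RPE1) and 915 bp (U2OS) from the midpoint. This is the pair whose stretch between the starts held no E2F form, octamer or TATAAA, and a match or its absence does not locate a binding site.

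**Figure D2:**
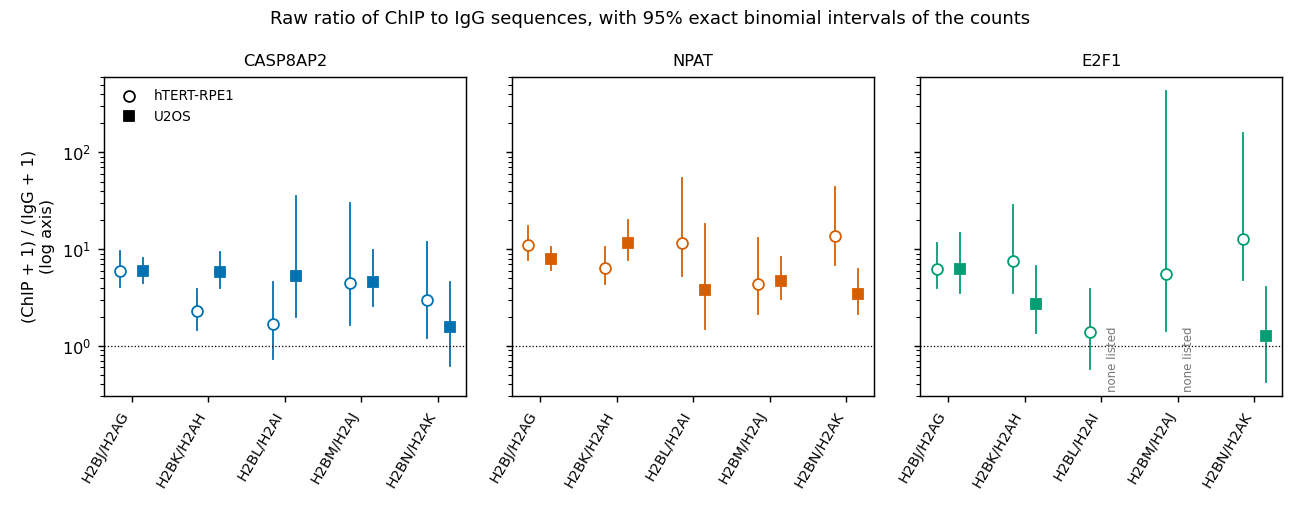
Raw ratio of ChIP to IgG sequences, (ChIP + 1) / (IgG + 1) on a log axis, at each pair in hTERT-RPE1 (open circles) and U2OS cells (filled squares), with lines for the 95% exact binomial interval of the counts and a dotted line at 1. At H2BN/H2AK the NPAT ratio is 13.6 (hTERT-RPE1) and 3.43 (U2OS).

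Set against each other, the lines could be compared at 13 combinations of a factor and a pair. The ratio was higher in U2OS cells in 6 and lower in 7, and the counting interval of the difference left out 0 in 3. These were CASP8AP2 at H2BK/H2AH, higher in U2OS cells by 1.33 on the log2 scale (0.45 to 2.21), NPAT at H2BN/H2AK, at -1.98 (-3.30 to -0.67), and E2F1 at H2BN/H2AK, at -3.34 (-5.50 to -1.18). With all regions of a pair summed, the CASP8AP2 difference at H2BK/H2AH, where both lines had a further region on the H2BK side, fell to 0.61 (-0.10 to 1.31), an interval that holds 0, and the ratio was higher in U2OS cells in 4 and lower in 9. In the other 10 of the unsummed differences the interval held 0, which does not show that the lines were alike. Among them, the regions compared did not overlap for CASP8AP2 at H2BL/H2AI and H2BN/H2AK and for NPAT at H2BM/H2AJ. Their summits were 1463, 765 and 1140 bp apart, in this order. NPAT at H2BK/H2AH was at 0.84 (-0.02 to 1.70) and NPAT at H2BJ/H2AG at -0.50 (-1.16 to 0.16). Each of these differences compares 1 library with 1 library, and a difference of the cell lines cannot be told apart from one of the libraries. How often such an interval leaves out 0 over all listed regions was not computed, so 3 of 13 stands without a background share. At H2BN/H2AK the IgG counts moved too, with 6.94 IgG sequences per kb in the NPAT region of hTERT-RPE1 cells and 13.6 in that of U2OS cells. In the E2F1 region these were 5.41 and 21.7 per kb, and ChIP sequences alone gave a difference of -1.93 for E2F1 and -0.40 for NPAT.

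By raw ratio, NPAT was highest at H2BN/H2AK in hTERT-RPE1 cells and at H2BK/H2AH in U2OS cells. The order in hTERT-RPE1 cells ran on with H2BL/H2AI, H2BJ/H2AG, H2BK/H2AH and H2BM/H2AJ, and that in U2OS cells with H2BJ/H2AG, H2BM/H2AJ, H2BL/H2AI and H2BN/H2AK. The places of H2BM/H2AJ and H2BL/H2AI in hTERT-RPE1 cells depend on the region taken, since the smaller, significant region of H2BM/H2AJ had a raw ratio of 12.5 and summing the regions of H2BL/H2AI gave 3.45, with all 5 NPAT intervals of this line overlapping each other. For CASP8AP2, H2BJ/H2AG came first in both lines. In every library the intervals of neighbors in this order overlapped. Over all libraries the intervals were apart in 4 of 53 combinations of pairs. In hTERT-RPE1 cells these were H2BJ/H2AG above H2BK/H2AH for CASP8AP2, and H2BN/H2AK and H2BJ/H2AG above H2BL/H2AI for E2F1. In U2OS cells it was H2BK/H2AH above H2BN/H2AK for NPAT. Which intervals are apart depends on the region taken. The CASP8AP2 region used for H2BK/H2AH in hTERT-RPE1 cells was not significant. The significant one of that pair had a raw ratio of 5.78 (3.0 to 15.6), and its interval overlaps that of H2BJ/H2AG. CASP8AP2 and NPAT of 1 line share the rabbit IgG library, and in hTERT-RPE1 cells their depth over it was alike, 1.09 and 1.08. The height of the NPAT summit was above that of CASP8AP2 at all 5 pairs in that line, by 1.09 (H2BM/H2AJ) to 5.11 times (H2BN/H2AK). In U2OS cells, where the depths were 1.09 and 1.23, it was higher by 1.03 to 1.95 times, and the values of 1.03 (H2BM/H2AJ) and 1.07 (H2BL/H2AI) lie within the difference in depth. At H2BM/H2AJ in hTERT-RPE1 cells the heights were 12 and 11 reads, at summits 1285 bp apart in regions that were not significant. The antibodies differ, so heights do not compare the amounts of the factors.

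Elsewhere on chromosome 6 between 26 and 28 Mb, NPAT had 21 significant regions in each line, with a median raw ratio of 7.08 (hTERT-RPE1) or 7.47 (U2OS). The medians over the 5 pairs were 11.1 and 4.73. For CASP8AP2 the other regions, 12 and 15 of them, had medians of 3.93 and 5.29, and the pairs 3.0 and 5.25. For E2F1 the other regions, 5 and 3 of them, had medians of 8.63 and 3.06, and the pairs with a listed region 6.26 and 2.73. Heights were lower at the pairs, with NPAT medians of 46 and 37 reads against 70 and 61 and CASP8AP2 medians of 11 and 36 against 35.5 and 52. The other regions lie over 1 kb from every midpoint. For NPAT they thus hold flanking regions of H2BK/H2AH (U2OS) and of H2BL/H2AI and H2BN/H2AK (both lines). The other regions were picked for being significant and the pairs by position, so these medians describe the locus and were not tested. HINFP had 8 significant regions in this stretch in each line, with a median raw ratio of 11.1 (hTERT-RPE1) or 9.11 (U2OS), and none of them was at the pairs.

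**Figure D3:**
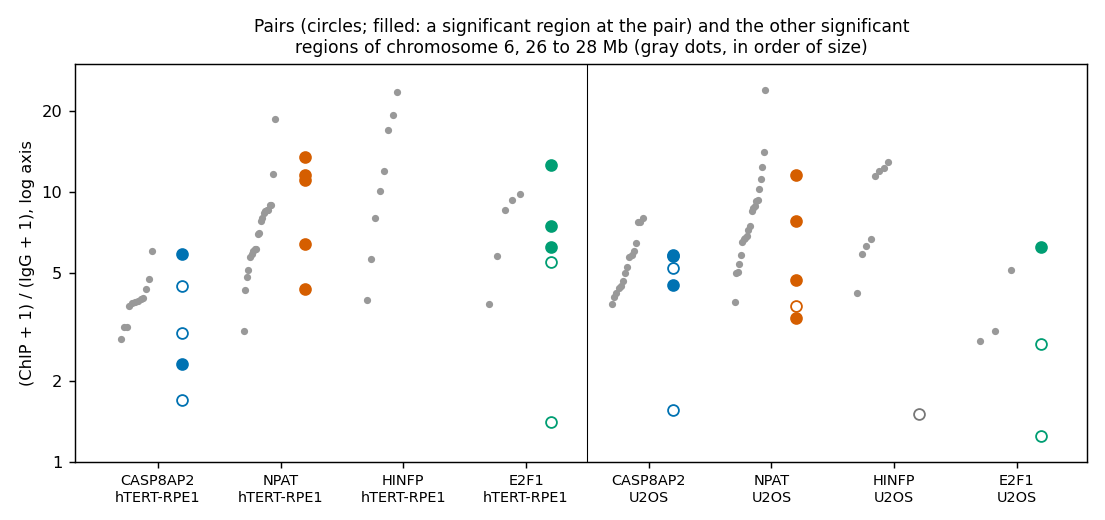
Raw ratio (log axis) at the pairs with a listed region (circles, filled where the pair had a significant region) beside the other significant regions of chromosome 6 between 26 and 28 Mb (gray dots, in order of size), for each library. NPAT at the pairs runs from 4.38 to 13.6 in hTERT-RPE1 cells, where the other regions run from 3.06 to 18.7, and the HINFP circle at 1.5 was not significant.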

How the data were processed

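ChIP-Seq libraries of CASP8AP2, NPAT, HINFP and E2F1 from hTERT-RPE1 and U2OS cells were used, 1 per factor and line. The authors mapped reads to NCBI36 and called regions in each library. The aligner, peak caller and duplicate handling are not given in the sources used here. The deposited lists give raw counts of ChIP and IgG sequences per region. The deposited height is a signal, the reads piled up at the summit. The deposited fold change is a ratio, with 1 added to both counts and scaled by a constant of the library. For the deposited p-value no adjustment across a list is named in the sources used here.

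Regions with a summit within 1 kb of a midpoint were kept. Where a pair had several, values are from the one with the most ChIP sequences, and a pair was called when any of them was significant. Intervals of ratios are 95% Clopper-Pearson intervals of the ChIP share, without the added count, and those between lines come from the variance of log counts. The selection was tested on simulated lists. All 10 genes are named, and members and motifs were chosen with earlier results of these data known. The planned comparison of protein sequences was not made. Alternatives were windows of 500 bp and 2 kb, regions covering the midpoint, stricter or no thresholds, other added counts, depth scaling, summed regions and the highest pile. Tools were Biopython 1.88, scipy 1.17.1 and pandas 2.3.3 in Python 3.11.15, with figures from matplotlib 3.10.9.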

Additional observations from a re-analysis of the deposited data

How the results depend on the processing

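With a summit within 500 bp in place of 1 kb, the pairs with a significant region fell to 1 for CASP8AP2 and 1 for E2F1 in hTERT-RPE1 cells and to 0 for E2F1 in U2OS cells, since these regions lie further out. Regions covering the midpoint gave 1 pair (hTERT-RPE1) and 2 pairs (U2OS) for CASP8AP2, and 2 and 0 for E2F1. A p-value under 1e-10 left NPAT with 4 of its 5 pairs (hTERT-RPE1) and 3 of its 4 (U2OS). The same limit left CASP8AP2 with 1 and 2 pairs, in this order of lines, and E2F1 with 1 pair in each line. With a fold change above 5, NPAT and CASP8AP2 each kept 2 pairs in U2OS cells. With no threshold, 5 pairs had a region of CASP8AP2 and 5 of NPAT in each line. E2F1 then had 5 (hTERT-RPE1) and 3 (U2OS), and HINFP had 1 in U2OS cells. Within 2 kb no count moved by over 1.5 times. Adding 0.5 or no count and scaling for depth kept all 29 raw ratios within their counting intervals. Summing the regions of a pair moved 3 of 29 out of theirs, to 3.45 for NPAT at H2BL/H2AI and 3.13 for E2F1 at H2BK/H2AH in hTERT-RPE1 cells and to 2.54 for E2F1 at H2BJ/H2AG in U2OS cells. Between the lines, ChIP sequences alone moved 4 of 13 differences beyond their interval, to 1.04 for CASP8AP2 and 0.55 for NPAT at H2BJ/H2AG, 1.57 for NPAT at H2BM/H2AJ and -0.40 for NPAT at H2BN/H2AK. Of these, NPAT at H2BJ/H2AG and CASP8AP2 at H2BJ/H2AG changed sign, from values whose interval held 0, as did E2F1 at H2BJ/H2AG (-0.79). Summing regions changed the sign of 4 of 13, to 0.14 for NPAT at H2BL/H2AI, -0.64 for NPAT and -0.15 for CASP8AP2 at H2BM/H2AJ and -0.99 for E2F1 at H2BJ/H2AG. The interval of E2F1 at H2BJ/H2AG then left out 0 (-1.75 to -0.23), while that of CASP8AP2 at H2BK/H2AH came to hold it. Scaling for depth changed 1 sign, to -0.08 for NPAT at H2BM/H2AJ. The highest pile in place of the most sequences moved 1 of 29 summits, NPAT at H2BM/H2AJ in hTERT-RPE1 cells, to 60 bp from the midpoint, and with it the gaps to CASP8AP2 (337 bp) and E2F1 (312 bp). Apart from the construction named, the cause was not tested. No paired analysis was possible because each factor had 1 library per cell line. The widest intervals came with few IgG sequences. For E2F1 in hTERT-RPE1 cells these were H2BM/H2AJ, with 10 and 1 sequences (1.42 to 434), and H2BN/H2AK, with 37 and 2 (4.77 to 158). What part total depth has in this was not tested.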

Other observations

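Outside the 1 kb around H2BL/H2AI, on the H2AI side, both lines had a significant region with summits about 2 kb from the midpoint. The next gene of the RefSeq table on that side is H3C10 (HIST1H3H), a replication-dependent H3 gene. In hTERT-RPE1 cells NPAT had 154 ChIP and 26 IgG sequences there, a raw ratio of 5.74, and CASP8AP2 had 92 and 23, a raw ratio of 3.88. In U2OS cells NPAT had 101 and 25, a raw ratio of 3.92, and CASP8AP2 had 68 and 17, a raw ratio of 3.83. The NPAT summits lay 2027 and 2020 bp from the midpoint, 7 bp apart between the lines. NPAT had more ChIP sequences there than in its region at H2BL/H2AI in each line.

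The lists also hold NPAT regions at the flanks of H2BN/H2AK. In hTERT-RPE1 cells a significant NPAT region with 67 ChIP and 13 IgG sequences, a raw ratio of 4.86, had its summit 1386 bp from the midpoint on the H2AK side. On that side U2OS cells had 11 and 4 sequences at 1563 bp, not significant, and their significant region at the pair, from 27913091 to 27914564, overlaps the flanking region of hTERT-RPE1 cells, which ends at 27913734. In U2OS cells a significant flanking region, with 40 and 6 sequences and a raw ratio of 5.86, had its summit 1443 bp away on the H2BN side. There hTERT-RPE1 cells had an NPAT region with 25 and 10 sequences that was not significant. How the lists split neighboring regions thus differs between the lines, and the flanking values were not tested.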
